A study of Mus musculus with 2 samples.

Results

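Mir137, Mir149, Mir153, Mir384 and Mir488 are miRNA genes taken here as neuron-enriched or synaptic, which these bulk tissue data do not test. Each is annotated at a single locus. They were named by a rule that uses no measured value, although earlier results of these data were known when it was written, and are 5 of the 2202 miRNA genes in the count tables. All 5 were found in GENCODE M21 and all 5 were detected. The libraries hold short RNA (size range below 30 per the labels) of hippocampal tissue from B6CASTF1/J females, the first generation of a cross between C57BL/6J and CAST/EiJ, at 25 days of age. There is 1 group with 2 biological replicates, 1 library each, with no treatment, no engineered allele and no other genotype or age. The labels number the tissue samples separately but give both the same donor entry, so differences between the libraries hold the spread between these tissue samples and their library preparation together. Which layer of the hippocampus was taken is not named.

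A miRNA gene is transcribed into a hairpin that is cut to a short duplex, and 1 strand of the duplex, the mature miRNA, guides an Argonaute protein to messenger RNAs. Pairing is led by the seed, bases 2 to 8 of the mature strand, so miRNAs with the same seed can bind the same sites. In neurons such miRNAs hold down the translation of messages near synapses and help to fix the neuronal state. miR-137 is known for its part in neuronal maturation and synaptic function, miR-153 for repressing messages of synaptic vesicle proteins such as SNAP-25, and miR-384-5p for work on synaptic strengthening in the hippocampus. miR-149 and miR-488 are brain-expressed miRNAs that lie within protein-coding genes.

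The mature strands are shown because they fix which of these genes could share targets and which reads can be placed. Each is from RefSeq (GRCm38.p6), written 5′ to 3′ with the seed in capitals. The 10 mature strands are 21 to 23 bases long, so counts were not divided by length.
miR-137-5p: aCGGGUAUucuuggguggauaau
miR-137-3p: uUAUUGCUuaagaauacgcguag
miR-149-5p: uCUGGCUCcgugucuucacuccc
miR-149-3p: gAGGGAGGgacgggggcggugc
miR-153-5p: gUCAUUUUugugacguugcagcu
miR-153-3p: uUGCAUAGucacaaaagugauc
miR-384-5p: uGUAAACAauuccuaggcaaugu
miR-384-3p: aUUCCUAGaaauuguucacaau
miR-488-5p: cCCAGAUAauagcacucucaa
miR-488-3p: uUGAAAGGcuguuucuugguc
No seed occurs in more than 1 of the 5 genes. The miR-384-5p seed is that of the miR-30 family, in the RefSeq table miR-30a-5p, miR-30c-5p and miR-30e-5p, and the miR-149-3p seed is that of 3 other miRNAs there. The other 8 seeds occur in no other mature miRNA of the RefSeq table. Counts are per gene, so the 5p and 3p strands of a hairpin cannot be told apart.

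The hairpins differ in base composition. That of Mir149 is 68.2% G and C, more than 95.4% of the 371 detected genes with a RefSeq hairpin. Those of Mir137, Mir488 and Mir153 are at 45.2%, 42.2% and 42.03%. The hairpin of Mir384 is at 32.95%, and only 1.08% of the 371 were lower. The median of the 371 was 52.2%. The hairpins at either end of this range are given with both mature strands in capitals.
Mir149 hairpin: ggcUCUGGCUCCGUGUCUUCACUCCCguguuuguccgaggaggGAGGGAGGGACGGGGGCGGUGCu
Mir384 hairpin: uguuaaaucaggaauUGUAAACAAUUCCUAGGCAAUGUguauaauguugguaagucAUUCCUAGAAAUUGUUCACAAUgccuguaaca

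The loci lie in introns, in a noncoding exon and between genes, in mm10 coordinates counted from 1. Mir149 (ENSMUSG00000065470.1; chromosome 1, start 92850378, end 92850443) is within an intron of Gpc1, which encodes the cell-surface proteoglycan glypican-1. Mir488 (ENSMUSG00000070103.2; chromosome 1, start 158505625, end 158505733) is within an intron of Astn1, the neuronal adhesion protein astrotactin. Mir153 (ENSMUSG00000065538.1; chromosome 12, start 117250817, end 117250885) is within an intron of Ptprn2, a membrane protein of dense-core vesicles. These 3 genes have the strand of their host, and Mir153 and Mir488 also lie in introns of the antisense genes Gm5441 and Gm37679. Mir137 (ENSMUSG00000065569.2; chromosome 3, start 118433857, end 118433929) is part of an exon of Gm26871, a noncoding gene. Mir384 (ENSMUSG00000065499.1), on the minus strand of chromosome X (start 105344282, end 105344369), overlaps no other annotated gene.

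The single-locus label was checked against the annotation. None of the 5 hairpins shares more than 15 bases in a row with any of the other 2201 miRNA genes on either strand, the longest being between Mir149 and Gm25306. For Mir137, Mir153, Mir384 and Mir488 the longest shared stretches were 11, 10, 12 and 12 bases. No mature strand of the 5 occurs in the transcript of another GENCODE gene, except that Gm26871 contains Mir137 at the same place. For all 5, the count without strand equalled the count on the main strand, and no read lay on the opposite strand in either library. A count of 0 allows up to 3 counts, or 0.547 counts per 1000000 (CPM) in replicate 1 and 0.703 CPM in replicate 2.

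The replicate 1 table accounts for 15474606 reads, of which 5481053 (35.4%) fell in miRNA genes on the main strand, and the replicate 2 table for 13677083, of which 4266963 (31.2%) did. CPM is set against these reads in miRNA genes. Reads that match several places, 41.9% and 46.4% of the tables, are in no gene count. They lower the total that the members are set against and touch genes with copies. Detection means 2 CPM or more in both libraries, which 433 genes reached.

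Mir149 and Mir137 held almost all of the counts of the 5 genes. Mir149 had 74045 counts, or 13509 CPM, in replicate 1 and 140359 counts, or 32894 CPM, in replicate 2, and was the gene with the 8th highest mean CPM of all (23202 ± 13707 CPM, SD, n = 2). It ranked 16 in replicate 1 and 6 in replicate 2. Reads that match several places are left out of these ranks, so genes with copies may rank too low beside single-locus genes. Mir137 had 29162 counts (5321 CPM) and 60117 counts (14089 CPM), a mean of 9705 ± 6200 CPM (SD, n = 2), and ranked 38 and 17. For both genes replicate 2 was the higher library. Together they made up 97.04% and 97.9% of the counts of the 5 genes.

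The other 3 genes lay more than an order of magnitude lower. Mir488 had 1466 counts (267 CPM) in replicate 1 and 1860 (436 CPM) in replicate 2, a mean of 352 ± 119 CPM (SD, n = 2). Mir384 had 1149 counts (209.6 CPM) and 1055 (247 CPM), a mean of 228 ± 26.6 CPM. Mir153 had 528 counts (96.3 CPM) and 1373 (322 CPM), a mean of 209 ± 159 CPM. The libraries lay close together for Mir384 and far apart for Mir153. For Mir153 the exact Clopper-Pearson 95% interval was 88.3 to 105 CPM in replicate 1 and 305 to 339 CPM in replicate 2, narrow beside the distance between the libraries. For Mir384 the intervals, 198 to 222 CPM and 233 to 263 CPM, did not overlap, but each was wider than the gap between them. These intervals hold counting error alone, since PCR can copy a molecule many times.

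**Figure D1:**
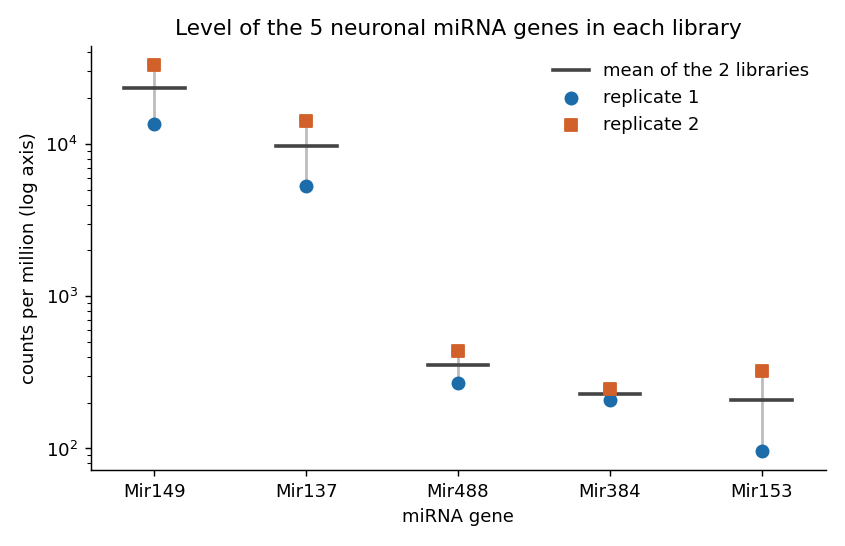
CPM (log axis) of the 5 genes, ordered by mean, with 1 point per library, a bar at the mean of the 2 libraries and a grey line for their span. Mir149 and Mir137 lie at 5321 CPM or more in both libraries and the other 3 at 436 CPM or less, and the libraries lie closest for Mir384.

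The mean CPM of Mir488, Mir384 and Mir153 ranked 160, 183 and 186 among the 2202 genes, and stood above 63.05%, 57.7% and 57.04% of the 433 detected genes. For Mir137 and Mir149 these shares were 94.9% and 98.2%. Genes with copies may be undercounted, which would place the 5 genes too high among all genes. The median over the 5 genes of the mean CPM was 352, beside 118 over the 433 detected genes. The 5 genes together held 1.94% of the counts in replicate 1 (95% interval 1.93 to 1.95) and 4.80% in replicate 2 (4.78 to 4.82), or 3.37% ± 2.02 (SD, n = 2). In bulk tissue, fewer cells of a type and less of a miRNA per cell cannot be told apart.

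The order Mir149, Mir137, Mir488 held in both libraries, whereas the order of Mir384 and Mir153 did not. Mir149 exceeded Mir137 by 2.54 times in replicate 1 and 2.33 times in replicate 2. Their levels overlapped across libraries, since Mir137 in replicate 2 (14089 CPM) stood above Mir149 in replicate 1 (13509 CPM). Mir137 exceeded Mir488 by 19.9 and 32.3 times, with no overlap. Mir488 exceeded Mir384 by 1.28 and 1.76 times, and its lower library (267 CPM) was above the higher library of Mir384 (247 CPM). Mir384 was 2.18 times Mir153 in replicate 1 but 0.768 times in replicate 2, so these neighbours do not differ beyond their spread. No test of this order was made. Counts of different miRNAs also depend on how well each sequence is ligated and amplified, which was not measured here.

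Within a library the ratio of 1 gene to another does not depend on scaling, and by this measure Mir149 and Mir137 were the pair whose ratio moved least. Among the 10 pairs of the 5 genes, the ratio differed between the libraries by 1.09 times (95% interval 1.07 to 1.11, from the counts on a log scale) for Mir149 to Mir137. It differed by 1.26 times (1.14 to 1.40) for Mir137 to Mir153 and by 1.37 times (1.24 to 1.52) for Mir149 to Mir153. Mir137, Mir149 and Mir153 thus kept their ratios to each other within 1.5 times. Mir384 moved against these 3 by more. The ratio of Mir149 to Mir384 went from 64.4 to 133, that of Mir137 to Mir384 from 25.4 to 57.0, and the ratio of Mir384 to Mir153 changed most, by 2.83 times (2.49 to 3.23). In all, 5 of the 10 pairs changed by more than 1.5 times. Mir149 to Mir488 (1.49 times) and Mir488 to Mir384 (1.38 times) also stayed within it. The same share over pairs of other genes was not computed, so these counts have no background.

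Between the libraries, 4 of the 5 genes were more than 1.5-fold higher in replicate 2, none was more than 1.5-fold lower, and 1 lay within that range. Of all 579 genes with at least 10 counts in sum, 41.1% were past 1.5-fold with replicate 2 higher and 28.2% past it with replicate 2 lower. The members' median log2 ratio of (CPM + 1), replicate 2 over replicate 1, was 1.28, beside 0.24 over the 579 genes, whose log2 ratios had an SD of 1.54. All 5 belong to the 218 genes that averaged 100 CPM or more, of which 39.9% were past 1.5-fold with replicate 2 higher and 28.0% with it lower. For these 218 the median log2 ratio was 0.24 and the SD 1.81. There is 1 library on each side, so a fold compares these libraries and not conditions, and no p-value is given.

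Mir153 differed most, 3.34-fold (95% interval 3.02 to 3.70) higher in replicate 2, followed by Mir137 at 2.65-fold (2.61 to 2.69) and Mir149 at 2.43-fold (2.41 to 2.46). Such ratios were not rare: of these 218 genes, 30 had a larger log2 ratio than Mir153, 44 a larger one than Mir137 and 48 a larger one than Mir149. Mir488 was 1.63-fold (1.52 to 1.75) higher in replicate 2, with 80 of the 218 above it. Mir384 was 1.18-fold (1.08 to 1.28) higher, and its log2 ratio of 0.24 was the median of the 579 genes.

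**Figure D2:**
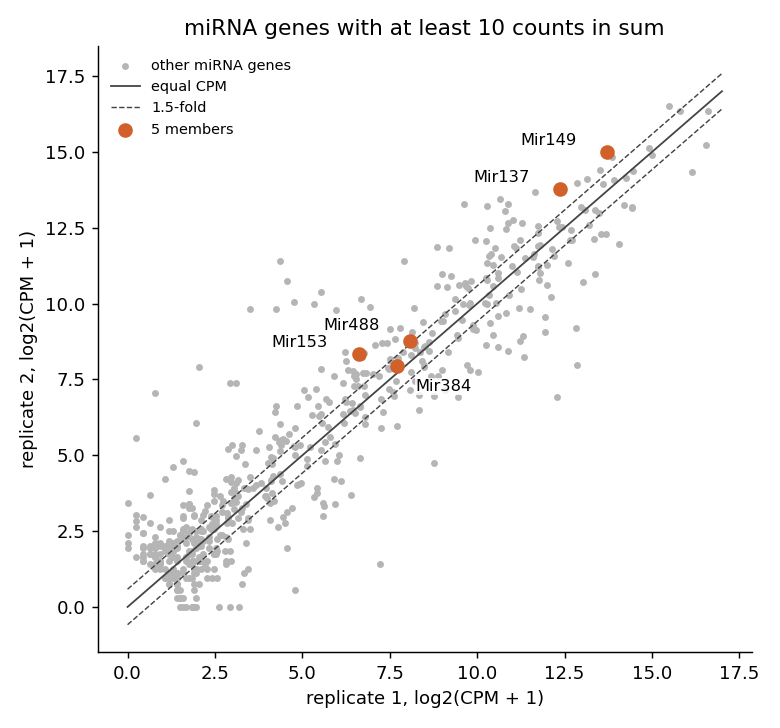
Each point is 1 of the 579 miRNA genes with at least 10 counts in sum, at its log2(CPM + 1) in replicate 1 (x) and replicate 2 (y), with the 5 members in orange, a solid line at equal CPM and dashed lines at 1.5-fold. Mir153, Mir137, Mir149 and Mir488 lie above the upper dashed line, inside a wide scatter of other genes, and Mir384 lies between the dashed lines.

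The direction for Mir384 and the size for the others depended on the scaling of the libraries. edgeR TMM and DESeq2 size factors move every log2 ratio by -0.36. With TMM, Mir153, Mir137 and Mir149 were 2.60-fold, 2.06-fold and 1.90-fold higher in replicate 2, and Mir488 was 1.27-fold higher, no longer past 1.5-fold. Mir384 turned, to a ratio of 0.920 with TMM and 0.918 with size factors. Under both scalings 3 of the 5 genes were more than 1.5-fold higher in replicate 2, where 30.3% of the 218 more abundant genes were higher and 36.7% lower by that measure.

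**Figure D3:**
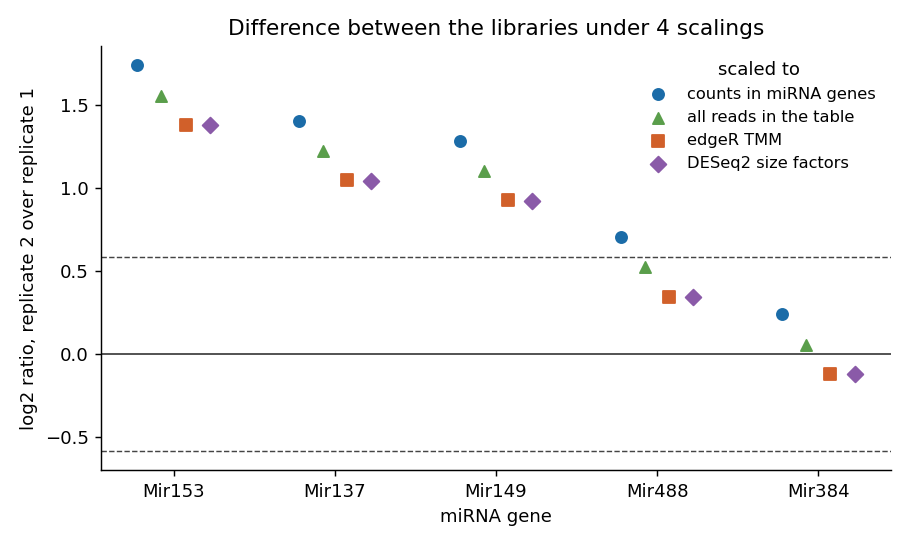
Log2 ratio of replicate 2 over replicate 1 for the 5 genes, with 1 symbol for each of 4 scalings, a solid line at equal levels and dashed lines at 1.5-fold either way. Mir153, Mir137 and Mir149 stay above the upper dashed line under all 4, Mir488 passes it only with counts in miRNA genes, and Mir384 is above 0 with counts in miRNA genes or all reads and below 0 with TMM and size factors.

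Mir384 is the member whose seed is shared with abundant miRNAs. The strands with its seed are given to show that they are alike at the seed and differ after it.
miR-384-5p: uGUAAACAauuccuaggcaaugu
miR-30a-5p: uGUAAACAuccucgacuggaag
miR-30c-5p: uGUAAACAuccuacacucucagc
miR-30e-5p: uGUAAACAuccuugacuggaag
The RefSeq table lists 4 genes besides Mir384 with this seed, Mir30a, Mir30e, Mir30c-1 and Mir30c-2. Mir30b and Mir30d are known as members of the same family. Mir30d was the most abundant of the 7 genes by mean, at 9447 CPM in replicate 1 and 6145 CPM in replicate 2, which is 45.1 and 24.9 times the level of Mir384. Mir30a was at 4524 CPM in replicate 1 and 3589 in replicate 2, and Mir30e at 3426 and 5159 CPM. Mir30a was thus 21.6 and 14.5 times the level of Mir384, and Mir30e 16.3 and 20.9 times. Mir30b was at 87.03 and 217 CPM, nearer to Mir384. Mir30c-2 (180 and 288 CPM) and Mir30c-1 (77.7 and 225 CPM) were also near Mir384, but they yield the same mature strand, so reads that match both are in neither count and their levels are uncertain. Mir384 made up 1.17% of the CPM of the 7 genes in replicate 1 and 1.56% in replicate 2.

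Between the libraries the 7 genes did not move as 1 group. Mir30c-1 and Mir30c-2 were 2.90-fold (95% interval 2.59 to 3.26) and 1.60-fold (1.47 to 1.74) higher in replicate 2, Mir30b 2.50-fold (2.23 to 2.79) and Mir30e 1.51-fold (1.48 to 1.54) higher. Mir30a and Mir30d had ratios of 0.793 (0.777 to 0.809) and 0.650 (0.641 to 0.660), below that of Mir384 at 1.18. With TMM, Mir30c-1 and Mir30b were still past 1.5-fold, at 2.26 and 1.95, and Mir30c-2 and Mir30e were at 1.25 and 1.17. Mir30a and Mir30d, at 0.619 and 0.507, were then past 1.5-fold in the other direction. Mir30e counts rest on strand: without strand its count is 0 in both libraries.

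**Figure D4:**
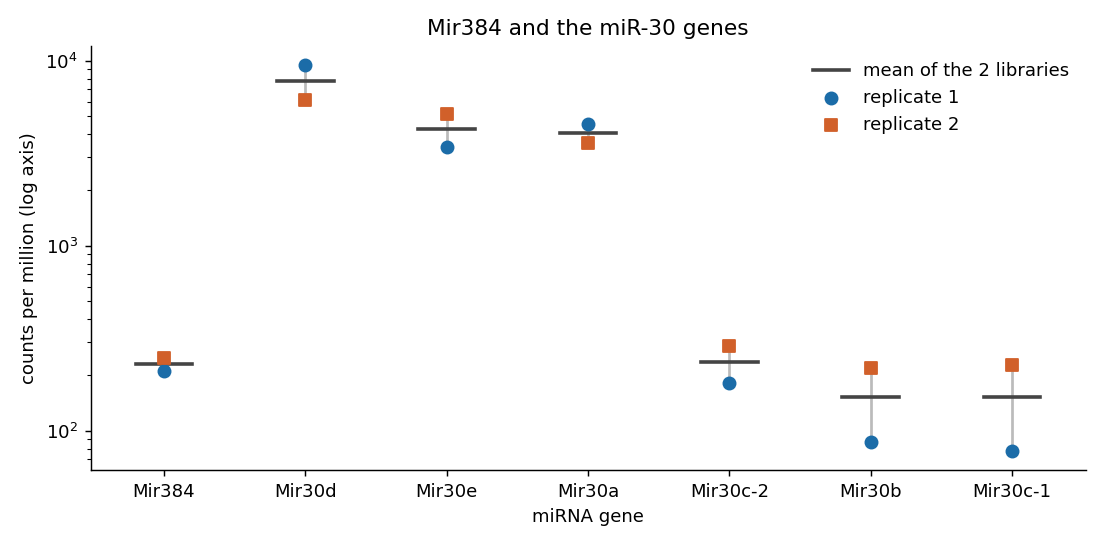
CPM (log axis) of Mir384 and the 6 genes of the miR-30 family, with 1 point per library, a bar at the mean of the 2 libraries and a grey line for their span. Mir30d, Mir30e and Mir30a lie at 3426 CPM or more in both libraries, and Mir384 lies near Mir30c-2, Mir30b and Mir30c-1, at 288 CPM or less; replicate 1 is the higher library for Mir30d and Mir30a, and with TMM for Mir384 too.

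The seed of miR-149-3p, by contrast, is shared with products of genes near or at the floor. Mir7016 had 15 and 30 counts (2.74 and 7.03 CPM), Mir1943 18 and 8 counts (3.28 and 1.87 CPM), and the copies Gm27740 and Gm27775 none. Mir137, Mir153 and Mir488 had no other gene with a seed of theirs in the RefSeq table.

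Other neuron-enriched miRNA genes, a list of 20 that leaves out the 5, were divided between both directions. The Mir9, Mir128, Mir129, Mir138 and Mir218 genes of this list each share a mature strand with a copy. Mir124a-1, Mir124a-2 and Mir124a-3 are numbered as copies too, but whether they share a strand was not checked. They had 18 and 20, 2 and 13, and 4 and 4 counts in replicates 1 and 2. Reads that match several copies are in no gene count, so the levels and ratios of all these genes are uncertain. Mir124a-2 is among the higher genes counted below. Of the 20, 17 were detected and 19 had at least 10 counts in sum. Of these 19, 7 were more than 1.5-fold higher in replicate 2, 9 more than 1.5-fold lower and 3 within that range, with a median log2 ratio of 0.05. For all 579 genes these were 41.1% higher, 28.2% lower and a median of 0.24, so the number of higher genes was near the background. With TMM the split was 6 higher, 9 lower and 4 within, beside 32.5% higher and 35.9% lower of the 579. The 20 summed to 48433 CPM (4.84%) in replicate 1 and 39533 CPM (3.95%) in replicate 2, and the 5 members to 1.94% and 4.80%. The sum of the 20 leaves out reads that match several copies, so it is not measured like that of the 5. Mir132 alone went from 17142 to 4038 CPM, a larger fall than that of the sum, which would not have fallen without this gene. Other genes fell as well, among them Mir138-1 and Mir485, while Mir128-1 and Mir128-2 rose.

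The 3 most abundant genes of that list went different ways. Mir128-1, for a miRNA that dampens neuronal excitability, was 1.88-fold (95% interval 1.86 to 1.90) higher in replicate 2, at 11606 and 21819 CPM. Its copy Mir128-2 was 2.59-fold (2.54 to 2.64) higher, at 2470 and 6393 CPM. The same mature strand comes from both, so their counts are uncertain. Mir132, whose transcription is induced by neuronal activity, went from 17142 CPM in replicate 1 to 4038 CPM in replicate 2, 4.25-fold (4.18 to 4.31) lower. In replicate 1 Mir132 was thus above both Mir149 (13509 CPM) and Mir137 (5321 CPM), and in replicate 2 below both. Mir134, a dendritic miRNA with no copy, was 3.34-fold (3.19 to 3.50) higher in replicate 2, a ratio like that of Mir153, and was chosen for mention after its values were seen.

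**Figure D5:**
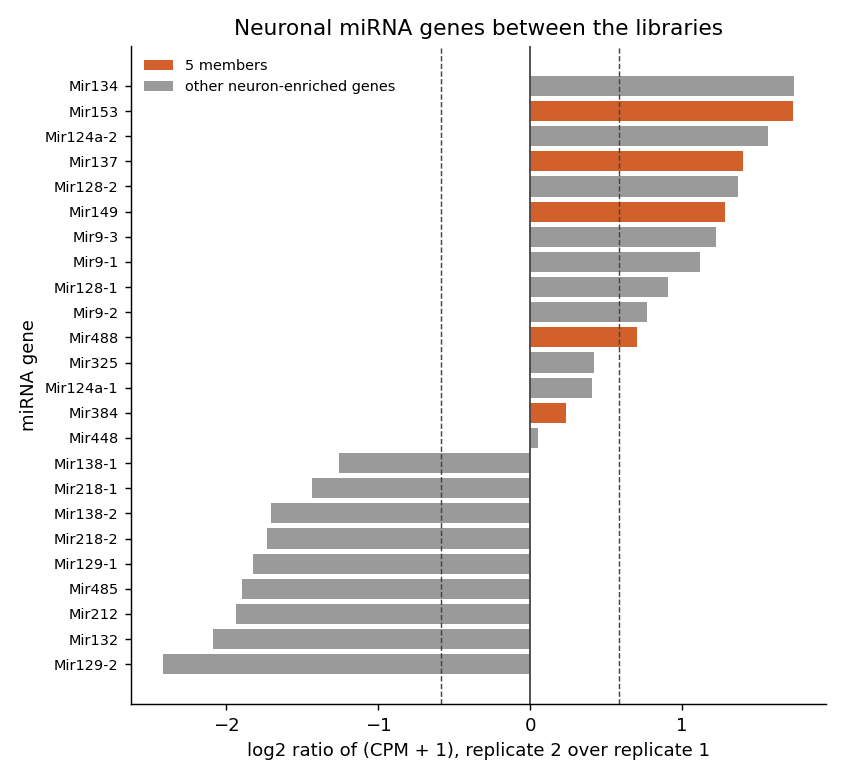
Log2 ratio of (CPM + 1), replicate 2 over replicate 1, for the 5 members (orange) and the 19 other neuron-enriched genes with at least 10 counts in sum (grey), sorted, with dashed lines at 1.5-fold. Mir153, Mir137, Mir149 and Mir488 lie among the higher genes past the dashed line, Mir384 lies close to 0 (below 0 with TMM and size factors), and 9 grey genes from Mir138-1 down to Mir129-2 lie past the dashed line on the other side.

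By level in the 2 libraries, the genes closest to each member were mostly not in the neuronal list, which holds only 17 of the 428 other detected genes. Closeness was the Euclidean distance between pairs of log2(CPM + 1), over 2 libraries and 428 other detected genes, and it describes level and ratio alone. Nearest to Mir149 were Mirlet7d (14920 and 29093 CPM, distance 0.23) and Mir128-1 (distance 0.63). Nearest to Mir137 were Mir382 (7420 and 16145 CPM, distance 0.52) and Mir298 (3210 and 13089 CPM, distance 0.74). Mir153 had the closest partners, Mir6540 (103 and 304 CPM, distance 0.13) and Mir483 (107 and 330.4 CPM, distance 0.16). Nearest to Mir384 were Mir1224 and Mir34c (distances 0.25 and 0.26), and nearest to Mir488 were Mir412 and Mir1981 (0.17 and 0.28).

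Lists of markers of other cell types also differed between the libraries, and their part in the members' differences was not tested. The oligodendrocyte list (Mir219a-2, Mir338, Mir219a-1, Mir219b) had 3 of 4 genes detected and summed to 6503 CPM in replicate 1 and 939 CPM in replicate 2. Mir219a-2 and Mir219a-1 share a mature strand, so reads that match both are in neither count and their levels are uncertain. The endothelial and mural list (Mir126a, Mir143, Mir145a; 3 of 3) summed to 21958 and 12895 CPM, the microglia and immune list (5 of 6, led by Mir150, Mir146 and Mir142) to 1990 and 1101 CPM, and the erythroid list (Mir486, Mir451a, Mir144; 3 of 3) to 88.1 and 65.9 CPM. These 4 sums were lower in replicate 2, but single genes went the other way. Each sum except the erythroid is carried by its most abundant genes. In the erythroid list Mir451a and Mir144 were lower, and Mir486, the most abundant by mean, was higher. Mir142, Mir155 and Mir223 of the microglia and immune list were 2.29-fold, 2.10-fold and 2.70-fold higher in replicate 2 (list median log2 ratio 0.30), Mir219a-1 was 4.42-fold and Mir486 1.97-fold higher. For the 3 endothelial and mural genes, the ratios were 0.526, 0.951 and 0.753. The choroid plexus and ciliated list (4 of 6, led by Mir204, Mir449a and Mir34c) went from 982 to 2304 CPM. This rise rests mostly on Mir449a (101 and 1139 CPM), while Mir204 and Mir34c were within 1.5-fold, at 1.30 and 1.38. The epithelial list (5 of 6, led by Mir200c, Mir429 and Mir200b) went from 74.8 to 5837 CPM. The sensory cluster of Mir183, Mir182 and Mir96 (2 of 3) went from 28.3 to 1839 CPM. No gene of these lists was at 0 in both libraries.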

How the data were processed

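The deposited files are read counts per miRNA gene, 1 table for each of 2 libraries, with no header line. Per the text deposited beside each table, the assembly is mm10 and the annotation GENCODE M21. No aligner, trimming or counting setting is stated (not given in the sources used here). Of 3 value columns, which no source names, the second was used, as the count on the main strand. The 4 opening rows, which name no gene, stayed out of library sizes: in replicates 1 and 2 they hold 17.1% and 17.2% unmapped reads, 41.9% and 46.4% reads with several places, 5.56% and 5.17% outside miRNA genes, and no ambiguous reads in this column. All 2202 identifiers matched GENCODE M21.

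CPM, exact conditional binomial intervals of ratios, and exact Clopper-Pearson intervals of shares were computed with Python 3.11.15 and scipy 1.17.1. edgeR 4.0.16 (TMM) and DESeq2 1.42.0 (size factors) gave other scalings. Interval code was tested on simulated data. With 1 group, no test between conditions exists. Other alternatives were all reads as the denominator, the count without strand, other filters, pseudocounts and folds, and each library alone. Genes named are the 5 members, genes sharing a seed, the 2 nearest genes by level, and the 3 most abundant detected genes of each list. Other genes named were added after their values were seen or to complete a list. They are Mir30b, Mir30d, Mir134, Mir155, Mir223, Mir219b, Mir96, Mir448, Mir3064, neighbouring miRNA genes, the Mir124a genes and the neuron-enriched genes with copies. Members and lists were chosen with earlier results of these data known. The lists are other neuron-enriched, oligodendrocyte, microglia and immune, endothelial and mural, choroid plexus and ciliated, erythroid, epithelial and the sensory Mir183 cluster. Alleles of CAST/EiJ were not analysed here.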

Additional observations from a re-analysis of the deposited data

How the results depend on the processing

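Each library alone left the mean CPM of every member and their combined share within 1 SD of the reported value, which holds by construction with 2 libraries. With all reads as the denominator, mean levels fell to 3140 (Mir137), 7524 (Mir149), 67.3 (Mir153), 75.7 (Mir384) and 115 (Mir488) CPM, the combined share to 1.09%, and the ratios between the libraries to 2.33 (Mir137), 2.14 (Mir149), 2.94 (Mir153), 1.04 (Mir384) and 1.44 (Mir488). With edgeR TMM the ratios of Mir137, Mir149, Mir153, Mir384 and Mir488 were 2.06, 1.90, 2.60, 0.920 and 1.27, and with DESeq2 size factors 2.06, 1.90, 2.60, 0.918 and 1.27. These follow from the change of library total. The count without strand gave 2.60 for Mir137 and 2.39 for Mir149. The median log2 ratio of the other neuron-enriched genes turned to -0.29 with either TMM or size factors. With no filter on low counts, 373 genes in place of 238 were more than 1.5-fold higher in replicate 2. More genes were then compared, and the percent rose too, from 41.1% to 45.5%. At 2-fold, 3 of the 5 members were higher in replicate 2. The share of all genes past 2-fold was not computed. The lowest of the 3 was Mir149, and 22.0% of the 218 more abundant genes had a larger log2 ratio than it. No paired analysis was possible because there is 1 group. With 2 libraries, the spread of each level is known only roughly.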

Other observations

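Mir384 has a neighbour among miRNA genes of the same strand. Mir325, a gene of the neuron-enriched list, lies 34.7 kb from Mir384 on chromosome X (105379082 to 105379179). It was at 145 CPM in replicate 1 and 194 CPM in replicate 2, 1.34-fold (95% interval 1.21 to 1.48) higher, beside 1.18-fold for Mir384. With either other scaling, ratios are lower by 0.36 on the log2 scale. The other 4 members have no such detected neighbour close by: Gm24155, 792 bases from Mir137, had 0 and 5 counts, and the nearest miRNA genes to Mir149, Mir488 and Mir153 lie 386, 835 and 1008 kb away. Mir1843b, the nearest to Mir488, had a ratio of 0.445, against 1.63 for Mir488.

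A looser match, bases 2 to 7, pairs miR-153-3p with miR-448-3p. Mir448, also of the neuron-enriched list, was at 16.2 and 16.9 CPM, with a ratio of 1.04 (95% interval 0.751 to 1.43), whereas Mir153 was 3.34-fold higher in replicate 2. The strands are given with bases 2 to 8 in capitals.
miR-153-3p: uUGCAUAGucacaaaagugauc
miR-448-3p: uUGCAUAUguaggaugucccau
The same bases of miR-149-5p occur in the products of 4 other genes, of which Mir3064 was the highest, at 17.7 and 47.6 CPM, against 13509 and 32894 CPM for Mir149.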
